A study of Mus musculus with 9 samples.

Results

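The Clec4 genes of the Dectin-2, DCIR and Mincle group were followed in splenic type 2 dendritic cells of young and adult mice. Members were taken by symbol from the deposited gene tables, and all 8 (Clec4a1, Clec4a2, Clec4a3, Clec4a4, Clec4b1, Clec4d, Clec4e and Clec4n) were found among the 24054 genes listed. All 8 were also among the 14452 genes whose counts averaged 1 or more per library and were tested. The 9 libraries came from C57BL/6 mice that carried Cre in both copies of the Clec9a locus and a tdTomato reporter in both copies of the Rosa locus. The reporter therefore marks cells with a history of Clec9a promoter activity. The authors describe this promoter as active in committed dendritic cell precursors, in cDC1 and less so in pDCs, but not in cDC2. Both alleles were present in every group. The authors also state that mice with Cre in both copies have no functional DNGR-1, the product of Clec9a. CD11c-enriched spleen cells were sorted as live, single, non-autofluorescent cells positive for CD11c, MHCII and CD11b, and then by TOMATO. The groups were TOM+ cDC2 from 8-day-old mice (young TOM+ cDC2, n = 3), TOM- DC2 from 8-day-old mice (young TOM- DC2, n = 3), and TOM+ cDC2 from adult mice (adult TOM+ cDC2, n = 3). The adult mice were 9 weeks old for replicate 1 and 8 weeks old for replicates 2 and 3. Young spleens were pooled before sorting, so a young library is not a single animal, and the sexes of the mice behind these libraries are not given in the sources used here.

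The Clec4 genes encode type II C-type lectin receptors of myeloid cells, with a short cytoplasmic tail at the N-terminus and the lectin domain at the C-terminus. DCIR (Clec4a2) and DCIR2 (Clec4a4) carry an inhibitory motif in the tail that recruits the phosphatases SHP-1 and SHP-2, and DCIR2 is a surface marker of splenic cDC2 that has been used to deliver antigen to them. Dectin-2 (Clec4n), a receptor for fungal mannans, DCAR (Clec4b1), Mincle (Clec4e), a receptor for mycobacterial glycolipids, and MCL (Clec4d), the partner of Mincle, signal through the adaptor Fc receptor gamma chain (Fcer1g), the kinase Syk and the Card9, Bcl10 and Malt1 complex. Clec4a1 and Clec4a3 are further members of the DCIR family.

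The genes lay side by side on chromosome 6 (GRCm38) within 368.0 kilobases, from 122921848 to 123289870, in the order Clec4a1, Clec4a3, Clec4a4, Clec4b1, Clec4a2, Clec4b2, Clec4n, Clec4d and Clec4e. Clec4b2, which was not a member, is included in this span because it is the nearest relative of Clec4b1 after Clec4a2. The plus strand held 8 of them, and Clec4e was on the minus strand. Several are close copies, and this matters for reads of 50 bases. Over aligned bases only, the coding sequence of Clec4a2 was 87.6% identical to that of Clec4b1 and 86.7% identical to that of Clec4a4. Clec4n, Clec4d and Clec4e were at most 69.8% identical to it.

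The likeness of Clec4a2 to its neighbours changed along the gene. Coding exons 1, 2 and 3 of Clec4a2, the end that encodes the tail and the membrane span, were close to those of Clec4a4 (exon 1 91.5% identical, exon 2 without a difference, exon 3 93.1% identical) and 78.0%, 68.8% and 67.9% identical to those of Clec4b1. Coding exons 5, 6 and 7, the end that encodes the lectin domain, were 97.5%, 98.2% and 93.1% identical to those of Clec4b1 and 84.5%, 73.5% and 81.2% identical to those of Clec4a4. These identities leave out unaligned bases. Coding exons 1, 2 and 3 of Clec4a2 had 82, 117 and 101 bases aligned with Clec4a4, but only 41, 77 and 53 with Clec4b1. The pieces below show the change of partner along the gene. They are exonic coding sequence on the plus strand, with capitals at bases that are not matched to Clec4a2. The first set is coding exon 2 of Clec4a2, at chr6:123124970-123125086, with the matching exons of Clec4a4, at chr6:122991760-122991876, and Clec4a3, at chr6:122954036-122954152.
Clec4a2 exon 2: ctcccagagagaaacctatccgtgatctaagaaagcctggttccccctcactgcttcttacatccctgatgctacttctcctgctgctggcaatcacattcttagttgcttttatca
Clec4a4 exon 2: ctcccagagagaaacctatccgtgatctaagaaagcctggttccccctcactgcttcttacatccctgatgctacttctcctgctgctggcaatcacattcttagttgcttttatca
Clec4a3 exon 3: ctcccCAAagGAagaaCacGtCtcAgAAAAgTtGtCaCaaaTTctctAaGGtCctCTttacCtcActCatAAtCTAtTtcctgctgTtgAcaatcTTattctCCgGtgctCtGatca
Clec4a2 and Clec4a4 did not differ at any of these 117 bases, and Clec4a3 was not matched at 43 of them. The next set is coding exon 6 of Clec4a2, at chr6:123140656-123140768, with exon 5 of Clec4b1, at chr6:123069656-123069768, and exon 5 of Clec4a4, at chr6:123013759-123013871.
Clec4a2 exon 6: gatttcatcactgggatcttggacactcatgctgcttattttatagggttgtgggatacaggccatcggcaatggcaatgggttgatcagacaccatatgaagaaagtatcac
Clec4b1 exon 5: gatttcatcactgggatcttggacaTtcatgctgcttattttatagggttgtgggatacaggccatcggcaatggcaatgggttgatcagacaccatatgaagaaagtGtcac
Clec4a4 exon 5: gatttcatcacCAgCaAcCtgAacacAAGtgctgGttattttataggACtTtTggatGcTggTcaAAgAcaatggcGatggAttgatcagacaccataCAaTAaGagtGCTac
Here Clec4b1 differed from Clec4a2 at 2 of 113 bases and Clec4a4 at 30. A read that falls inside the shared exon 2 cannot be told apart between Clec4a2 and Clec4a4, so the levels of these members were read from both deposited counts.

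Between 12783252 and 22809401 reads per library were counted on genes, and no library was left out. All 8 cDC2 markers listed were above 1 TPM (transcript level scaled to gene length and library total) in every library, with Cd74 at 40692 to 64182 TPM and Zbtb46 at 112 to 159 TPM. The cells were sorted on CD11c, MHCII and CD11b, and the macrophage marker Adgre1 was also at 164 to 237 TPM. A level above 1 TPM therefore does not by itself tell cDC2 from other cells. Of the 9 neutrophil markers analysed here, 8 were under 1 TPM in every young TOM+ and adult library, and Csf3r, at 3.60 to 10.4 TPM, was called as higher in adults than in either young group. However, replicate 1 of young TOM- DC2 held Ngp at 15.5 TPM and S100a8 at 7.68 TPM against 0.09 TPM or less for Ngp and 0.26 TPM or less for S100a8 in the other libraries.

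In young TOM+ cDC2, Clec4n was the most abundant of the 8 genes, and the same held in young TOM- DC2. In adult TOM+ cDC2, Clec4a4 took this place. Clec4n was at 157, 216 and 176 TPM in the 3 young TOM+ libraries, at 158, 263 and 169 TPM in the young TOM- libraries, and at 38.2, 81.7 and 46.2 TPM in the adult libraries. Clec4a4 was at 130, 96.1 and 98.6 TPM in young TOM+ cDC2, at 136, 128 and 114 TPM in young TOM- DC2, and at 253, 280 and 244 TPM in adults. Thus the adult values of Clec4n were all below the young ones and those of Clec4a4 were all above them. Clec4d and Clec4e were at 2.86 TPM or less in every library.

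**Figure D1:**
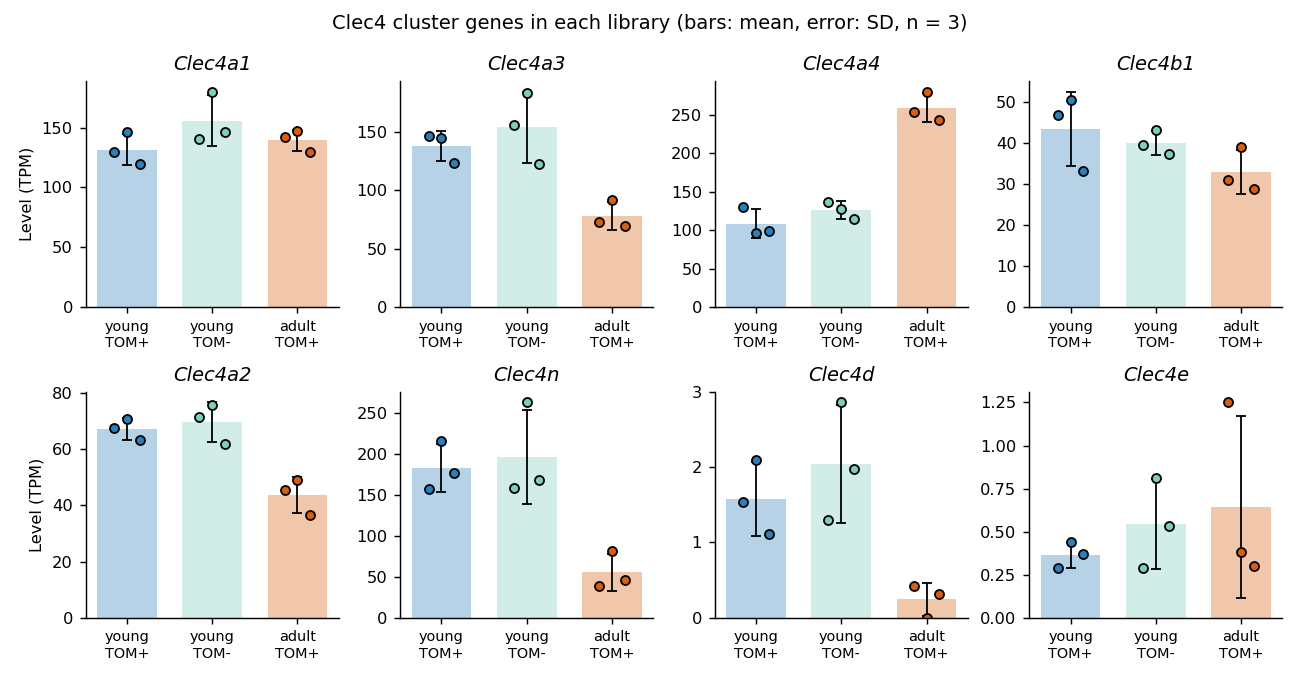
Level of each of the 8 genes in TPM (vertical axis, each panel with its own scale from 0) in the 3 groups (horizontal axis). Points are libraries, bars are means and error bars are SD of 3 libraries. Adult libraries are the highest for Clec4a4 and the lowest for Clec4a2, Clec4a3, Clec4d and Clec4n.

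In young TOM+ cDC2 the order of mean levels was Clec4n (183 ± 29.8 TPM, SD, n = 3), Clec4a3 (138 ± 12.7), Clec4a1 (132 ± 13.2), Clec4a4 (108 ± 18.8), Clec4a2 (67.1 ± 3.82), Clec4b1 (43.4 ± 9.02), Clec4d (1.58 ± 0.491) and Clec4e (0.367 ± 0.0751). The ranges of Clec4a3, Clec4a1 and Clec4a4 over the libraries overlapped. Within libraries, Clec4a3 was above Clec4a1 in 2 of 3 and Clec4a1 above Clec4a4 in 2 of 3, whereas Clec4a3 was above Clec4a4 in all 3. Differences between genes were not tested. In young TOM- DC2 the first 4 genes, Clec4n (197 ± 57.7 TPM), Clec4a1 (156 ± 21.2), Clec4a3 (154 ± 30.5) and Clec4a4 (126 ± 11.2), formed a run in which each range overlapped the next. Within libraries, however, Clec4n was above Clec4a1 and Clec4a3 above Clec4a4 in all 3, and Clec4a1 above Clec4a3 in 1. In adults Clec4a4 (259 ± 18.7 TPM) and then Clec4a1 (139 ± 9.04) stood clear of the rest, whereas Clec4a3 (78.0 ± 11.6), Clec4n (55.4 ± 23.2), Clec4a2 (43.7 ± 6.51) and Clec4b1 (32.9 ± 5.31) formed a run in which each range overlapped the next. Within adult libraries, Clec4a3 was above Clec4n and Clec4a2 above Clec4b1 in all 3, and Clec4n above Clec4a2 in 2.

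The comparison of young TOM+ cDC2 with young TOM- DC2 addresses the origin of the cells at one age. None of the 8 genes was called in it. A call required a log2 fold change (log2FC) beyond 1 and an adjusted p under 0.05 in edgeR's quasi-likelihood test, and 1.18% of all genes tested met this (170 of 14452), or 274 genes with the replicate number as a block. With all libraries, none of the 8 reached an unadjusted p under 0.05 in edgeR without a block, DESeq2 or limma. With the block, Clec4a1 and Clec4a4 did, at adjusted p = 0.14 and 0.11. On leaving out single libraries in edgeR, Clec4a4 also did so without young TOM+ replicate 1 (adjusted p = 0.24) or young TOM- replicate 3 (adjusted p = 0.62). Clec4a1 did so without young TOM+ replicate 2 (adjusted p = 0.72) or young TOM- replicate 1 (adjusted p = 0.45). The young groups overlapped in all 8 genes, whereas 16.6% of all genes tested did not overlap. The log2FC was -0.20 (95% interval -0.48 to 0.08) for Clec4a1, -0.13 (-0.46 to 0.20) for Clec4a3, -0.21 (-0.44 to 0.02) for Clec4a4, 0.09 (-0.27 to 0.45) for Clec4b1 and -0.02 (-0.28 to 0.25) for Clec4a2. For Clec4n it was -0.06 (-0.64 to 0.51), and these 6 intervals all lay within 1 on either side of 0. The intervals of Clec4d (-0.33, from -1.23 to 0.57) and Clec4e (-0.48, from -1.79 to 0.83) reached past -1, so a difference of that size was not excluded for them. Adjusted p-values ran from 0.61 for Clec4a4 to 0.99 for Clec4a2. The median log2FC of the 8 was -0.17, against 0.001 for all genes tested.

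The comparison of young with adult TOM+ cDC2 addresses age in cells of the same Clec9a history. Here 3 of the 8 genes were called, Clec4a4 as higher in adults and Clec4n and Clec4d as higher in young mice, where 12.8% of all genes tested were called (5.96% as higher in young and 6.86% as higher in adult TOM+ cDC2). A further 2, Clec4a3 and Clec4a2, passed the adjusted p but not the fold threshold, which makes 5 of 8 past the adjusted p against 40.6% of all genes. The groups did not overlap in those 5 genes, and 51.1% of all genes did not overlap. The median log2FC of the 8 was 0.36, and that of all genes tested 0.05. Young TOM- DC2 against the same adult libraries gave calls for the same 3 genes in the same directions, where 11.3% of all genes were called (6.5% as higher in young TOM- DC2 and 4.78% as higher in adults). In that comparison 5 of 8 genes passed the adjusted p against 36.3% of all genes, and the groups did not overlap in the same 5 genes against 47.6% of all genes. Both comparisons share the adult libraries, so the second is not a repeat of the first, and in it age and Clec9a history cannot be told apart. In bulk samples, fewer cells that express a gene and less of its RNA per cell cannot be told apart either.

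**Figure D2:**
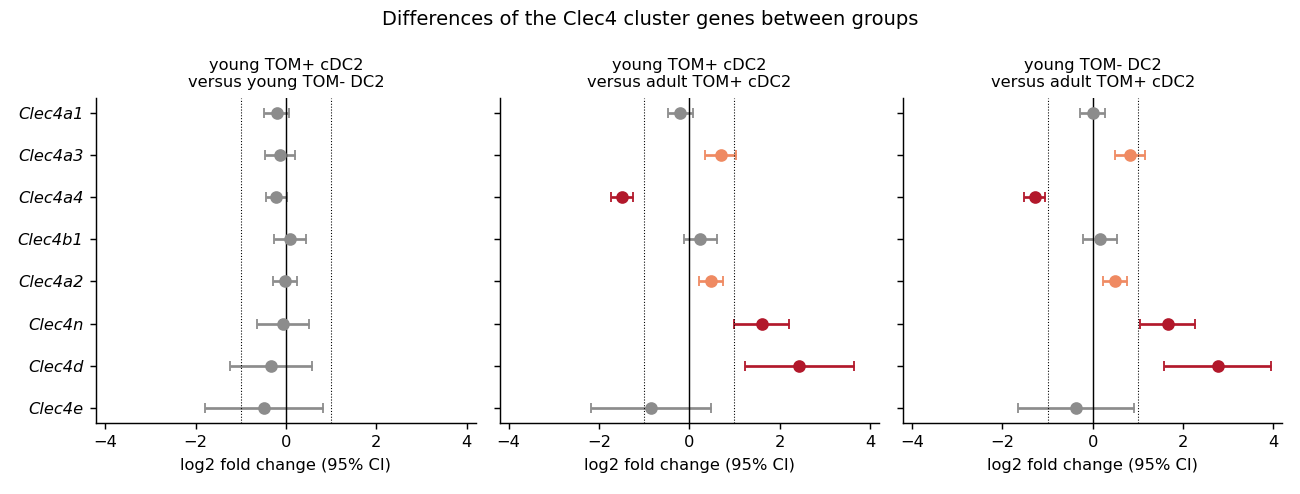
log2 fold change of each gene with its 95% interval (horizontal axis; a positive value is higher in the group named first) for the 8 genes in chromosomal order (vertical axis) in the 3 comparisons, from edgeR on the counts of 9 libraries. Red points were called, orange points passed the adjusted p only, grey points passed neither, and dotted lines mark a log2FC of 1 and -1. Clec4a4 lies at -1.49 and -1.28 and Clec4n at 1.60 and 1.66 against adults, while no point is coloured between the young groups.

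Of the genes for inhibitory receptors, Clec4a4 (DCIR2) rose with age. Its counts ran from 851 to 1267 in young TOM+ cDC2, from 1018 to 1404 in young TOM- DC2 and from 1768 to 2226 in adults, although the adult libraries were not the deepest. The log2FC was -1.49 (SE 0.108, adjusted p = 1.1e-06) for young against adult TOM+ cDC2, a fold of 2.81 in favour of adults. For young TOM- DC2 against adults it was -1.28 (SE 0.107, adjusted p = 4.3e-06). Clec4a2 (DCIR) went the other way, with 67.3, 70.7 and 63.1 TPM in young TOM+ cDC2, 71.3, 75.5 and 61.9 TPM in young TOM- DC2, and 45.4, 49.1 and 36.5 TPM in adults. Its log2FC was 0.48 (SE 0.123, adjusted p = 0.0081) in young TOM+ cDC2 and 0.50 (adjusted p = 0.0074) in young TOM- DC2, each against adults. The genes that share exon 2 and the inhibitory tail thus differed with age in opposite directions.

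The other genes of the DCIR family were Clec4a3 and Clec4a1. Clec4a3 was at 146, 145 and 123 TPM in young TOM+ cDC2, at 155, 183 and 122 TPM in young TOM- DC2, and at 73.0, 91.2 and 69.6 TPM in adults. All young libraries were above all adult ones, with a log2FC of 0.69 (SE 0.157, adjusted p = 0.0037) in young TOM+ cDC2 and 0.82 (SE 0.157, adjusted p = 0.0014) in young TOM- DC2. Clec4a1 was at 120 to 146 TPM in young TOM+ cDC2, 141 to 180 TPM in young TOM- DC2 and 129 to 147 TPM in adults, and these ranges overlapped. Its log2FC against adults was -0.20 (95% interval -0.48 to 0.08, adjusted p = 0.24) and 0.00 (-0.28 to 0.28, adjusted p = 0.98), and both intervals lay within 1 on either side of 0.

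Of the activating receptors, Clec4n (Dectin-2) fell with age. Its counts ran from 2089 to 2586 in young TOM+ cDC2 and from 343 to 720 in adults, and replicate 2 was the highest adult library. The log2FC was 1.60 (SE 0.278, adjusted p = 6.4e-04) for young against adult TOM+ cDC2 and 1.66 (SE 0.278, adjusted p = 5.8e-04) for young TOM- DC2. Clec4b1 (DCAR) was at 46.6, 50.4 and 33.2 TPM in young TOM+ cDC2, at 39.5, 43.0 and 37.2 TPM in young TOM- DC2, and at 30.9, 38.9 and 28.8 TPM in adults. These ranges overlapped, and the log2FC of 0.25 (95% interval -0.12 to 0.61, adjusted p = 0.27) and 0.16 (-0.21 to 0.53, adjusted p = 0.50) did not pass. Clec4a2 and Clec4b1, which share most of the lectin end, therefore gave estimates of the same sign, of which only that of Clec4a2 passed, and the difference between the genes was not tested.

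Clec4d and Clec4e, the genes for MCL and Mincle, were counted by few reads. Clec4d had 22, 28 and 22 counts in young TOM+ cDC2, 14, 39 and 36 in young TOM- DC2, and 3, 1 and 5 in adults. All young libraries were above all adult ones, and the adult counts were close to the 3 counts that a count of 0 allows. Per library total, the summed 72 counts of young TOM+ cDC2 were 6.21 times the 9 of adults (95% exact interval 3.10 to 14.1, counting error only), and the 89 of young TOM- DC2 were 8.01 times (4.03 to 18.1). The fitted log2FC was 2.44 (SE 0.550, adjusted p = 0.0037) and 2.77 (SE 0.543, adjusted p = 0.0017). It was 1.05 and 1.27 in limma on log2(TPM + 1), a scale that understates the change of low genes, and 3.07 and 3.36 with the replicate block. With that block, adult replicate 3 adds nothing to differences from adults, because no other library carries its number. Clec4e had 10, 11 and 11 counts in young TOM+ cDC2, 6, 19 and 19 in young TOM- DC2, and 24, 7 and 7 in adults. Its log2FC of -0.85 against adults (95% interval -2.18 to 0.48, adjusted p = 0.29) rested on adult replicate 1, and it was 0.11 without that library. For young TOM- DC2 it was -0.37 (-1.66 to 0.92, adjusted p = 0.66), and 0.59 without adult replicate 1. In replicate 1 of young TOM- DC2, the library with neutrophil transcripts, Clec4d and Clec4e were the lowest of their group. Without it the log2FC of Clec4d against adults was 3.04 (adjusted p = 8.1e-04).

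The balance among the 8 genes moved more with age than their sum. They added up to 674 ± 55.3 TPM in young TOM+ cDC2, 745 ± 117 TPM in young TOM- DC2 and 609 ± 70.0 TPM in adults (SD, n = 3), and these libraries overlapped. Clec4a4 made up 19.1%, 13.2% and 16.0% of the sum in young TOM+ cDC2, 19.4%, 14.6% and 17.5% in young TOM- DC2, and 43.3%, 40.7% and 43.9% in adults. Clec4n made up 23.2%, 29.7% and 28.6%, then 22.5%, 30.0% and 25.8%, and in adults 6.54%, 11.9% and 8.32%. Adults thus held the largest share of Clec4a4 and the smallest of Clec4n in every library. The ratio of Clec4a4 to Clec4n, both in TPM, was 0.609 ± 0.195 in young TOM+ cDC2, 0.675 ± 0.187 in young TOM- DC2 and 5.11 ± 1.61 in adults. On the log2 scale this ratio differed from that of adults by -3.06 in young TOM+ cDC2 and -2.91 in young TOM- DC2. Each exact two-sided permutation test gave p = 0.10 (adjusted p = 0.15 over 3 comparisons), the smallest that 3 against 3 libraries can give. The adult libraries were all above the young ones for Clec4a4 and all below them for Clec4n. The p for age was therefore fixed in advance and adds nothing to the calls of these genes. Between the young groups the ratio differed by -0.16 (p = 0.70 by the same exact permutation test). Young libraries of the same number deviated together, and the ratio was lower in the TOM+ library of all 3 such pairs. An exact permutation test of signs within pairs, added after seeing the data, gave p = 0.25, the smallest that 3 pairs allow.

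**Figure D3:**
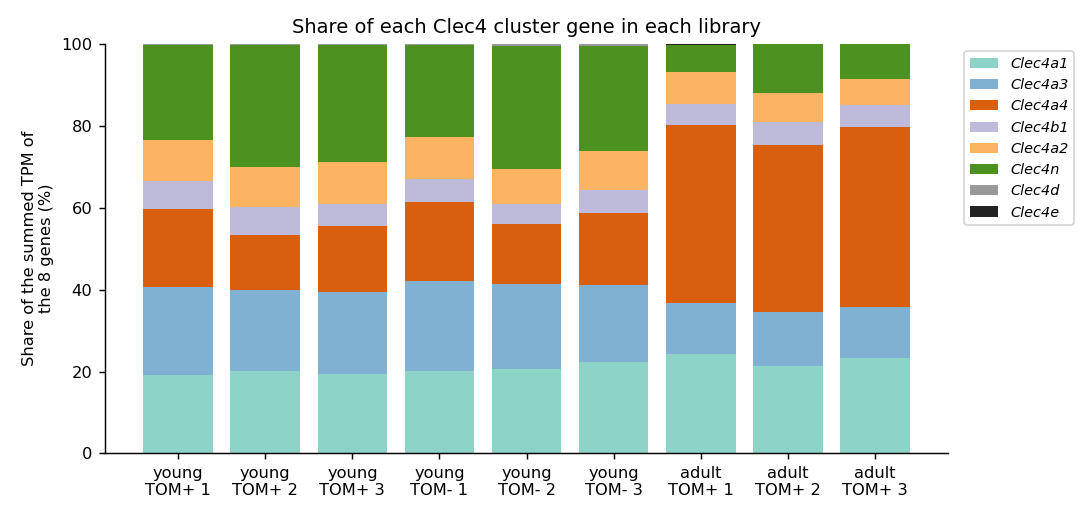
Share of each gene in the summed TPM of the 8 genes (vertical axis, percent) in each of the 9 libraries (horizontal axis, by group and replicate). The Clec4a4 share is 40.7% to 43.9% in adult libraries and 13.2% to 19.4% in young ones, and the Clec4n share is 6.54% to 11.9% and 22.5% to 30.0%.

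Because related copies share reads, the deposited counts of STAR, which keep only reads with a single best position, were set against the expected counts of RSEM, which divide reads that match several transcripts. In the GENCODE transcripts of GRCm38, 114 of 662 coding windows of 50 bases in Clec4a4 (17.2%) also occurred in another gene, all of them in Clec4a2. In Clec4a2 it was 167 of 740 (22.6%), shared with Clec4a4 and Clec4b1 in the coding part, and in Clec4b1 53 of 581 (9.12%), all with Clec4a2. Clec4n shared 11 of 581 (1.89%) with the annotated gene Gm44147, and Clec4a1, Clec4a3, Clec4d and Clec4e shared none. RSEM exceeded STAR in every library for the 3 genes with shared coding windows of more than 2%, and in no library for Clec4a1, Clec4a3 and Clec4n. The ratio of RSEM to STAR was 1.13 ± 0.0119 for Clec4a2, 1.16 ± 0.0257 for Clec4b1 and 1.15 ± 0.0361 for Clec4a4 (SD, n = 9 libraries). It was 0.973 ± 0.00541 for Clec4a1, 0.967 ± 0.00648 for Clec4a3 and 0.980 ± 0.00663 for Clec4n, close to the median of 0.972 over the 10112 genes whose counts averaged 50 or more. For Clec4d and Clec4e the ratio rested on few counts.

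**Figure D4:**
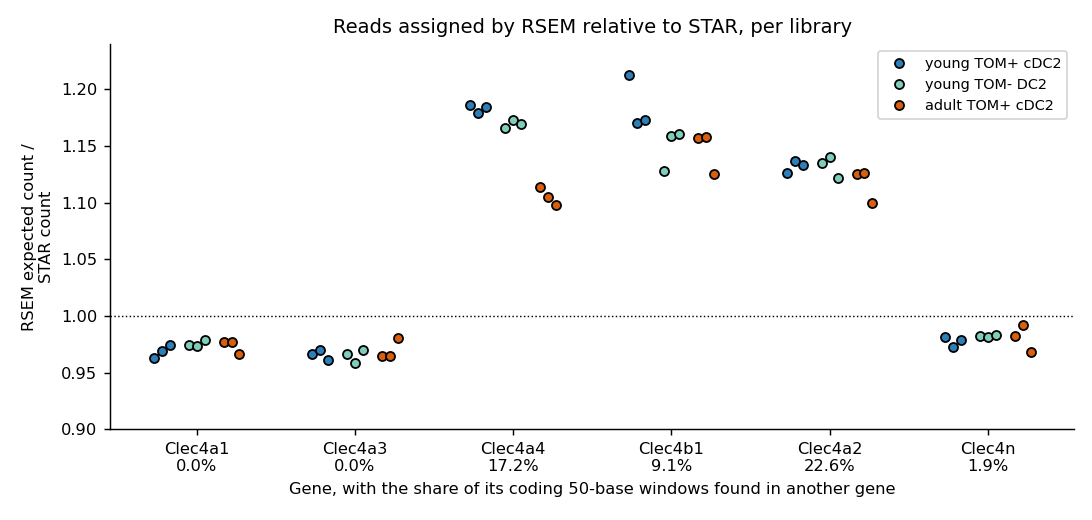
RSEM expected count divided by STAR count (vertical axis, starting at 0.90; dotted line at 1) in each library for the 6 genes with more than a few counts, in chromosomal order (horizontal axis). Percentages are the share of coding 50-base windows that occur in another gene. Clec4a4, Clec4b1 and Clec4a2 lie between 1.10 and 1.21, the others between 0.958 and 0.992, and the adult points of Clec4a4 lie below the young ones.

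The ratio of Clec4a4 differed with age, at 1.18 ± 0.00333 in young TOM+ cDC2, 1.17 ± 0.00371 in young TOM- DC2 and 1.11 ± 0.00788 in adults, so RSEM added relatively more reads to Clec4a4 in young libraries. The share of all reads that mapped to several positions was also higher there, at 12.9% to 13.4% in young TOM+ cDC2, 12.7% to 13.2% in young TOM- DC2 and 10.4% to 10.8% in adults, and its part in the ratio was not tested. The direction and the call of Clec4a4 did not depend on the counts used. On RSEM expected counts its log2FC was -1.42 (adjusted p = 2.3e-06) and -1.23 (adjusted p = 8.4e-06) against adults, and that of Clec4n was 1.56 and 1.63.

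Each gene was also compared with all other genes by its profile, its log2 CPM (counts scaled to library size) in the 9 libraries after its own mean was subtracted, among 10106 genes whose counts averaged 50 or more. The distance is the root mean square over the 9 libraries on the log2 scale. Clec4a4 lay nearest to Ifi47 (0.0782), an interferon-inducible GTPase, Ube2l6 (0.106), the conjugating enzyme of the ubiquitin-like protein ISG15, and Chd3 (0.107). Ifi47 was at 21.2, 23.5 and 54.8 TPM on average in young TOM+ cDC2, young TOM- DC2 and adults. Clec4n lay nearest to P2ry14 (0.206), a receptor for UDP-sugars, Oip5 (0.219) and Gpr171 (0.231), and P2ry14 was at 4.86, 4.96 and 1.25 TPM. Clec4a3 lay nearest to Emr4 (0.108), an adhesion receptor of myeloid cells, followed by Pgd (0.140) and G6pdx (0.145), enzymes of the pentose phosphate pathway. Clec4a2 lay nearest to Pdia4 (0.0587), Arrb1 (0.0685) and Hypk (0.0716), Clec4b1 to Homer3 (0.0729), B4galt6 (0.0975) and Prkcd (0.112), and Clec4a1, which varied little, to Snhg8 (0.1005), Ubl5 (0.103) and Bbip1 (0.106). The low counts of Clec4d and Clec4e gave distances above 0.32, and the nearest gene to Clec4e was the chemokine Cxcl2 (0.339), which was also highest among adults in replicate 1 (32.8 TPM, against 18.6 and 13.4). With 3 groups as the main source of variation, many genes share such profiles.

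Of the 4 other genes of the family listed, Clec4f was at 0 counts in every library and was not tested, and Cd207 (langerin) was at 0.27 to 0.84 TPM with no call. Clec4b2 had 3 to 12 counts in young libraries and 0 in each adult library. With 3 counts over the adult group as the floor, it was at least 5.18-fold higher in young TOM+ cDC2 and at least 4.86-fold higher in young TOM- DC2. It was called in both comparisons (adjusted p = 0.011 and 0.013), but the adjusted p was 0.057 and 0.056 with the replicate block, and both calls were also lost in limma on log2(TPM + 1), at 0.64 and 0.61. Clec4g was called as higher in adults, with a log2FC of -1.04 (adjusted p = 0.0013) and -1.65 (adjusted p = 6.9e-05). On RSEM expected counts its log2FC against young TOM+ cDC2 was -0.30 (adjusted p = 0.38), and the call in that comparison held under 12 of 18 alternatives, being lost also with DESeq2 and limma and without young TOM+ replicate 1 (-0.93) or adult replicate 2 (-0.91). Against young TOM- DC2 the call was lost in limma on log2(TPM + 1) and log2(TPM + 0.1), at -0.69 and -0.87.

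The genes that carry the signal of the activating receptors were expressed in all groups. Of the 13 listed, 1 was called against adults, Malt1, the protease of the Card9 complex, which was higher in adults. It was at 88.5 to 109 TPM in young TOM+ cDC2, 101 to 126 TPM in young TOM- DC2 and 204 to 245 TPM in adults, with a log2FC of -1.27 (adjusted p = 3.3e-06) and -1.13 (adjusted p = 9.9e-06). The adaptor Fcer1g, at 1129 to 1272 TPM in young TOM+ cDC2 and 1318 to 1481 TPM in adults, passed the adjusted p with a smaller log2FC of -0.38 (adjusted p = 0.014) and -0.35 (adjusted p = 0.024). Tyrobp, a related adaptor (-0.27, adjusted p = 0.067), and Prkcd, the kinase that acts between Syk and Card9 (0.21, adjusted p = 0.10), did not pass in young against adult TOM+ cDC2. In all, 1 of 13 was called there, against 12.8% of all genes, and 6 of 13 passed the adjusted p, against 40.6% of all genes, 5 of them higher in adults (Bcl10, Fcer1g, Malt1, Syk and Vav3) and Plcg2 higher in young cells. Bcl10, Syk, Vav3 and Plcg2 are named here after their values were seen. In young TOM- DC2 it was also 6 of 13, against 36.3% of all genes, and all 6 were higher in adults. The median log2FC of the 13 was -0.20 and -0.23, and that of all genes tested 0.05 and 0.07. Clec4n was thus lower in adults, whereas Malt1 and Fcer1g were higher. In limma on log2(TPM + 1) the Malt1 difference between young TOM- DC2 and adults was -0.95, short of the fold threshold.

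Of the 4 genes of inhibitory signalling none was called by edgeR. Ptpn6, which encodes SHP-1, passed the adjusted p as higher in adults, at 548 to 758 TPM in young TOM+ cDC2, 591 to 809 TPM in young TOM- DC2 and 792 to 1058 TPM in adults (log2FC -0.69, adjusted p = 0.0018, and -0.63, adjusted p = 0.0036). Lyn, a kinase of the inhibitory motif (-0.13, adjusted p = 0.26), and Inpp5d, the phosphatase SHIP (-0.13, adjusted p = 0.33), did not pass in young against adult TOM+ cDC2. Ptpn6 and Clec4a4 were thus both higher in adults.

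Of the 10 cytokine and chemokine genes tested as outputs of these receptors, 5 were called between young and adult TOM+ cDC2, where 12.8% of all genes were called. Il1b, Il12b, Ccl3 and Ccl4 were higher in adults and Cxcl1 in young cells. Il1b was at 2686 to 3276 TPM in young TOM+ cDC2 and 5365 to 7077 TPM in adults (log2FC -1.17, adjusted p = 6.3e-05), although with the replicate block the log2FC was -0.98. Il12b, the shared subunit of IL-12 and IL-23, was at 16.4 to 22.5 and 45.0 to 78.8 TPM (-1.79, adjusted p = 3.0e-05). Ccl3 (-1.13, adjusted p = 1.4e-04) and Ccl4 (-1.37, adjusted p = 2.6e-04) were called against young TOM+ cDC2, although Ccl3 was at -0.99 and without a call in limma on log2(TPM + 1) and log2(TPM + 0.1). In young TOM- DC2 they passed the adjusted p only (-0.53 and -0.79, adjusted p = 0.021 and 0.010). Cxcl1 rested on 17 counts in adults, and its call against young TOM+ cDC2 (1.80, adjusted p = 0.045) was lost on leaving out any of 6 single libraries (adjusted p from 0.054 to 0.14). Those were young TOM+ replicates 2 and 3, young TOM- replicate 2 and each adult library. Its call against young TOM- DC2 (2.51, adjusted p = 0.0084) was lost without young TOM- replicate 3 (1.61, adjusted p = 0.054). Of the genes without a call in any comparison, Tnf was at 87.3 to 253 TPM, Cxcl2 at 13.3 to 33.7 TPM and Il6 at 5.04 to 8.94 TPM over the 9 libraries, and Csf2 had no counts.

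Il23a was the only gene of the receptor and signalling lists named here that was called between the young groups. It had 7, 1 and 7 counts in young TOM+ cDC2, 60, 87 and 209 in young TOM- DC2, and 2, 0 and 4 in adults. Young TOM- DC2 thus stood above both other groups in every library, with a log2FC of -4.50 (SE 0.513, adjusted p = 4.1e-04) for young TOM+ against young TOM- cells. None of the 8 lectin receptor genes was called in that comparison.

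**Figure D5:**
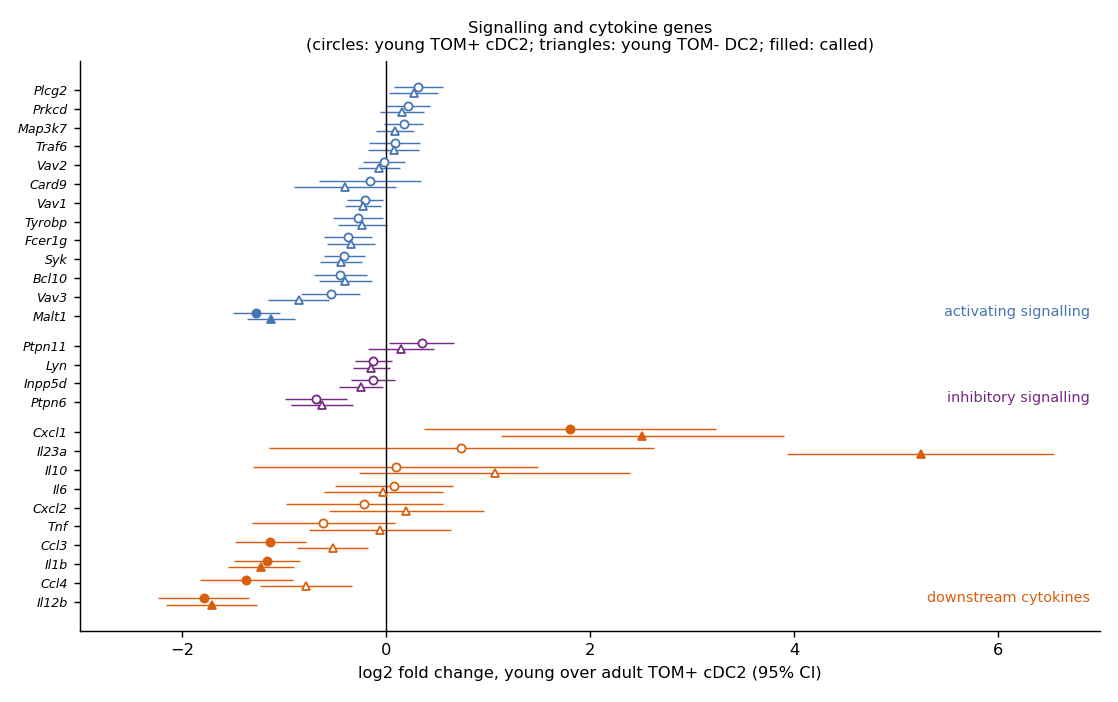
log2 fold change of young over adult TOM+ cDC2 with its 95% interval (horizontal axis) for the tested genes of activating signalling (13), inhibitory signalling (4) and cytokines (10) on the vertical axis. Circles are young TOM+ cDC2, triangles young TOM- DC2 and filled symbols called genes. Malt1 lies at -1.27 and -1.13, and Il23a is called only in young TOM- DC2, at 5.24.

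Markers of cDC2 subsets moved with age beside these genes. Of the 5 markers of ESAM-high cDC2, Cd4, Dtx1 and Esam were called as higher in adult than in young TOM+ cDC2. Hes1 (log2FC -0.02) and Nrp1 (0.03) did not pass, and Nrp1 passed the adjusted p as higher in young TOM- DC2 than in adults (0.56, adjusted p = 0.0046). The summed level of the 5, most of it from Cd4, Dtx1 and Hes1, was 213 to 280 TPM in young TOM+ cDC2, 250 to 348 TPM in young TOM- DC2 and 468 to 522 TPM in adults, higher in every adult library than in any young one. Of the 7 markers of ESAM-low cDC2, Ccr2 and Mgl2 were called as higher in young TOM+ cDC2, and Csf1r and Cx3cr1 passed the adjusted p in the same direction. Clec12a (-0.55, adjusted p = 0.011) and Cd14 (-0.89, adjusted p = 0.031) passed it as higher in adults. The summed levels of 1779 to 2627, 1881 to 3120 and 1875 to 2370 TPM overlapped, and most of each sum was Lyz2. Of the 8 cDC2 markers, 7 passed the adjusted p between young and adult TOM+ cDC2, against 40.6% of all genes, and none was called. Cd74 (-0.63), H2-Ab1 (-0.90), Itgax (-0.47), Flt3 (-0.57) and Irf4 (-0.75) were higher in adults, and Itgam (0.78) and Sirpa (0.56) in young cells. Of the genes for proteins used in the sort, Itgax (CD11c) and H2-Ab1 (MHCII) were thus higher in adults. Itgam (CD11b) was at 126 to 168 TPM in young TOM+ cDC2 and 73.0 to 86.2 TPM in adults. Of the 7 monocyte markers, Ms4a4c was called as higher in adults than in young TOM+ cDC2. Against young TOM- DC2 it passed the adjusted p only (-0.85, adjusted p = 6.7e-06). Ly6c2, Fcgr1, Chil3 and F13a1 were at 1.86 TPM or less in every library. The summed level of the 7, most of it from Ms4a4c, was 156 to 175 TPM in young TOM+ cDC2, 196 to 206 TPM in young TOM- DC2 and 316 to 323 TPM in adults. Of the 9 macrophage markers, Cd163 was called as higher in young TOM+ cDC2 than in adults, and Cd163, Mertk and Spic as higher in young TOM- DC2. Between young and adult TOM+ cDC2, Vcam1 passed the adjusted p as higher in adults (-0.74, adjusted p = 7.3e-04) and Spic as higher in young cells (0.58, adjusted p = 0.014). C1qa, C1qb and C1qc passed it as higher in young TOM- DC2 than in adults (0.79, 0.98 and 0.77, adjusted p = 0.028, 0.010 and 0.013). Cd163 passed it as higher in young TOM+ than in young TOM- cells (0.95, adjusted p = 0.026). The summed level of the 9 was 330 to 361, 417 to 462 and 256 to 312 TPM, highest in every young TOM- library, with Marco at 0.82 TPM or less. The B cell marker Ms4a1 was called as higher in adults than in either young group, and as higher in young TOM- DC2 than in young TOM+ cDC2, while Pax5 stayed at 0.12 TPM or less. Of the 6 cDC1 markers, Cadm1 was called as higher in young TOM+ cDC2 than in adults, and Irf8 and Cd8a as higher in adults, with summed levels of 202 to 216, 217 to 233 and 241 to 254 TPM and Xcr1 at 2.43 to 3.79 TPM. Of the 5 pDC markers none was called, Bst2 passed the adjusted p as higher in adults than in either young group and Ccr9 as higher than in young TOM- DC2, and Siglech was at 1.32 TPM or less. The part of these markers in the differences of Clec4a4, Clec4n and Clec4d was not tested.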

How the data were processed

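RNA of sorted spleen cells was amplified with SMART-seq v4 and sequenced as single reads of 50 bases. Per the labels, the authors aligned reads to mm10 (GRCm38) with STAR and deposited its gene counts per library. Between 26.1% and 31.6% of reads were not assigned to a gene and stayed out of the fits. The authors also deposited RSEM expected counts, rounded here to whole numbers, and RSEM TPM values. The deposited FPKM values were not used. The stranded count columns held near equal numbers, so strand was not kept and unstranded counts were used.

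Counts were normalised by TMM and tested with edgeR 4.0.16 (quasi-likelihood test, R 4.3.3) in a single fit of 9 libraries in 3 groups, over the 14452 genes whose counts averaged 1 or more. P-values were adjusted by Benjamini-Hochberg over all genes tested, and calls needed a log2FC beyond 1 and an adjusted p under 0.05. TMM factors were 1.03 to 1.08 in young and 0.894 to 0.928 in adult libraries, so fitted young-to-adult differences lie below those in TPM. DESeq2 1.42.0 with apeglm 1.24.0 and limma 3.58.1 on log2(TPM + 1) and log2(TPM + 0.1) were among 18 alternatives. On data simulated for young against adult TOM+ cDC2 (14257 genes), edgeR recovered 89% of genes changed by 1.5 on the log2 scale and 99% of those changed by 2.5. The changed genes were drawn above a higher count floor than the filter, so these rates do not cover the genes with the fewest counts. Libraries were simulated independently of one another, unlike the young libraries of the same number. Shared windows, identities and sequences were computed from the transcripts in the GRCm38 annotation of GENCODE with Biopython 1.88.

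Members and gene lists were chosen with earlier results of these data known. Named were all 8 members, the called genes and up to 3 others by TPM in each receptor, signalling and cytokine list, the 3 genes nearest in profile to each member, and marker genes that bear on a result. Replicate numbers for the block were those in the deposited sample names. Adult replicate 3 carries number 95, which no other library has, so with the block it adds nothing to differences from adults. The block also ties adult replicates 1 and 2 to the young libraries numbered 91 and 92. Young TOM+ and TOM- libraries of the same number deviated together (r = 0.746, 0.501 and 0.517 across genes), as young and adult libraries did not throughout (from -0.003 to 0.157). The labels do not say which libraries came from separate mice, so p-values measure the spread between these libraries. Intervals of count ratios and the floor of 3 counts cover counting error only.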

Additional observations from a re-analysis of the deposited data

How the results depend on the processing

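Clec4a4, Clec4n and Clec4d were called against adults, and none of the 8 genes between the young groups, under all 18 alternatives. Clec4a4 ranged from -1.62 to -1.26 (young TOM+ cDC2) and -1.40 to -1.03 (young TOM- DC2), and Clec4n from 1.39 to 1.99 and 1.36 to 2.05. Clec4a2 and Clec4a3 passed the adjusted p under all 18, without a call. The count of all genes called moved by over 1.5 times in 3 cases. It was 274 with the replicate block between the young groups (170 without), and 1122 and 986 in limma on log2(TPM + 1) for young TOM+ and young TOM- cells against adults (1853 and 1631 in edgeR). DESeq2 called 156, 1565 and 1359 genes. The block changed no call among the 8 genes. It took Il1b in young against adult TOM+ cDC2 to -0.98 and ended both calls of Clec4b2, which limma on log2(TPM + 1) also ended. Against adults the block rests on adult replicates 1 and 2, because no other library carries the number of adult replicate 3. On log2(TPM + 0.1) the median of all genes was 0.17 and 0.22 against adults, and 0.05 and 0.07 in edgeR.

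Signs turned only for values near 0 or resting on few counts. Between the young groups, leaving out single libraries gave -0.077 to 0.068 for Clec4a2, -0.261 to 0.052 for Clec4a3, -0.070 to 0.230 for Clec4b1, -0.605 to 0.060 for Clec4d and -0.228 to 0.235 for Clec4n. Clec4a1 in young TOM- DC2 against adults turned to -0.027 on RSEM counts, -0.020 in DESeq2, -0.022 with DESeq2 size factors in edgeR, -0.023 with the filterByExpr filter, -0.015 with only 2 groups fitted, -0.0054 with the block, and -0.021, -0.143 and -0.065 without young TOM+ replicate 3, young TOM- replicate 2 and adult replicate 3. Clec4e ran from -1.24 to 0.11 and from -0.76 to 0.59 against adults, the positive values without adult replicate 1. The cause was not tested. At 1 to 39 counts per library, depth limits Clec4d and Clec4e.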
